A study of Chlorocebus aethiops with 3 samples.

Results

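The mRNAs of the core splicing machinery and of the LSM proteins were followed in heavy polysomes after siRNA against RNA helicase A (RHA), a helicase of structured RNA encoded by DHX9. The members were 39 RefSeq ids, the mRNAs of the SNRP, SF3A, SF3B, U2AF and PRPF proteins, EFTUD2, SART1, LSM1 to LSM7, MAGOH and RBM8A. Of these, 36 have a probe on the array, among 18389 RefSeq mRNA ids in all, and each was read from its brightest probe. The remaining 3 ids, 1 of 2 ids of SNRPB and those of SNRPD2 and U2AF1, were not analysed here. The files give ids without gene names, and the symbols used here are those of the RefSeq records as they are generally known, assigned by hand.

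COS-7 cells, an established fibroblast-like line of African green monkey kidney transformed with SV40, were transfected at 0.5 nM with siRNAs designed on the coding region of human RHA or with scrambled siRNA. They were kept for 4 hours without serum and 24 hours with it, split, transfected again and harvested after a further 24 hours. Cytoplasm was run on sucrose gradients of 15% to 45%, and RNA of the pooled heavy polysome fractions was hybridised to 3 arrays of human probes, 1 for each biological replicate. Knockdown RNA was always in the Cy5 channel and control RNA in Cy3, and all arrays lie on 1 slide, so a dye effect and a knockdown effect cannot be told apart. Each value is the log2 ratio of knockdown over control on 1 array, and a rise or fall is relative to the other mRNAs of equal brightness on that array. RNA of the whole cell was not analysed here, so a change in how many copies of an mRNA a cell holds and a change in how it is loaded with ribosomes cannot be told apart.

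Splicing removes introns from nuclear pre-mRNA on a machine built from small nuclear ribonucleoproteins (snRNPs). The Sm proteins form a ring around the U1, U2, U4 and U5 snRNAs, and each snRNP adds proteins of its own: U1 binds the start of an intron, U2 with SF3A and SF3B binds the branch site, and the U4/U6.U5 tri-snRNP brings in the parts that carry out the reaction. The LSM proteins form rings of the same fold, a nuclear ring on U6 snRNA and a cytoplasmic ring, marked by LSM1, that acts in decapping and decay of mRNA. MAGOH and RBM8A are the core pair of the exon junction complex, which splicing leaves on the mRNA. All of these proteins are made on cytoplasmic ribosomes, and it is their mRNAs that the arrays measured.

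The targeted mRNA itself did not pass the test. Its tested probes had mean log2 ratios of -0.33 ± 0.37 and -0.28 ± 0.29 (SD, n = 3), with limma adjusted p of 0.210 and 0.217, so the names knockdown and control follow the labels. The share of all probes above background by the scanner's flag was 37.5% to 50.7% in control and 45.5% to 53.1% in knockdown. Replicate 3 had the largest share in both channels.

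Among the 34 members that could be tested, 5 rose and 7 fell in heavy polysomes after knockdown, and members of the same particle moved in opposite directions. SF3B1, LSM1, SNRPG, PRPF8 and LSM2 rose, by 1.61 to 2.40 times. SNRPB2, SNRPA, SNRPB, EFTUD2, SNRPC, PRPF31 and MAGOH fell, to between 0.526 and 0.696 times control. The 5 rises remained calls when each array was centred on a median in place of loess, while 3 of the 7 falls remained with the median of the tested probes and 0 with that of all probes (limma). Both centrings raised the ratio of every called member, which enlarges rises and shrinks falls. A call means an adjusted p under 0.05 in limma, fitted on all 18146 tested probes. Of these probes 9.72% rose and 8.64% fell, 18.4% in all. By 1 probe per RefSeq mRNA id, 9.84% of 10822 ids rose and 10.2% fell, 20% in all. The members' 14.7% risen and 20.6% fallen, 35.3% in all, lay above these shares.

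Brightness moved with that share. Members were brighter than most probes, with a median of 8.63 for the mean log2 signal of both channels against 7.46 for the RefSeq mRNA ids. When the tested probes were cut into 5 equal classes of brightness, 0.909% were called in the dimmest and 36.6% in the brightest, and 28 members lay in the upper 2 classes. In the brightest class 7 of 16 members were called. In the class beneath it 5 of 12 were called, where 28.9% of all probes were. None of the 6 dimmer members was called. They lay 1, 4 and 1 in the lower 3 classes, from the dimmest up, where 0.909%, 6.94% and 18.4% of all probes were called. So few members cannot set their lack of calls apart from these shares. The part of brightness in the members' share was not tested.

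The members had no common direction. Their median log2 ratio was -0.12, beside 0.0033 for the RefSeq mRNA ids, with 14 means above 0 and 20 below. The median size of the ratio, regardless of sign, was 0.41 against 0.23. The part of the members' greater brightness in this difference was not tested. On replicates 1, 2 and 3 the members' medians were -0.24, -0.097 and -0.018. The sign of the median depended on the normalization. Loess follows brightness, while centring shifts all ratios of an array alike. Centring each array on the median of the tested probes in place of loess gave 0.12. The median of all tested probes was then -0.0099, beside 0.018 with loess, but this setting places it near 0 by construction. Single members moved both ways, such as RBM8A from -0.090 to 0.45 and U2AF2 from -0.15 to -0.34. Centring on the median of all probes gave 0.43, a setting that moved the median of all tested probes from 0.018 to 0.30. In 22 of 34 members all 3 arrays had 1 sign, or 64.7%, against 58.8% of the RefSeq mRNA ids.

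**Figure D1:**
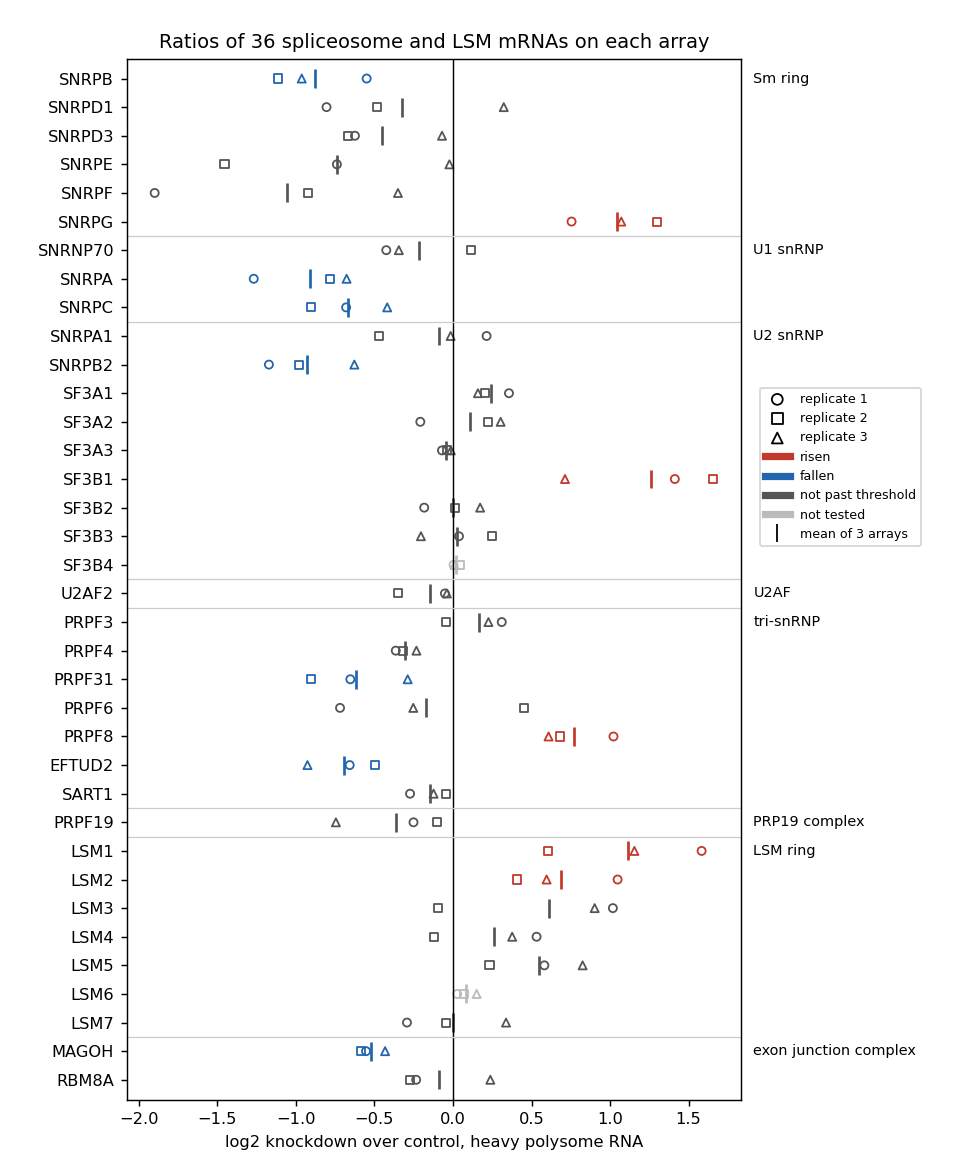
Log2 ratio of knockdown over control (horizontal axis) for each of the 36 members with a probe, grouped by particle; symbols are the 3 arrays, the tick is their mean, and colour gives the call. SNRPG, SF3B1, PRPF8, LSM1 and LSM2 lie above 0 on every array, as do LSM5, SF3A1 and the untested SF3B4 and LSM6. The tested Sm mRNAs other than SNRPG have means below 0 with loess (SNRPD1 lay above 0 with both centrings, and SNRPD3 with centring on all probes).

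**Figure D2:**
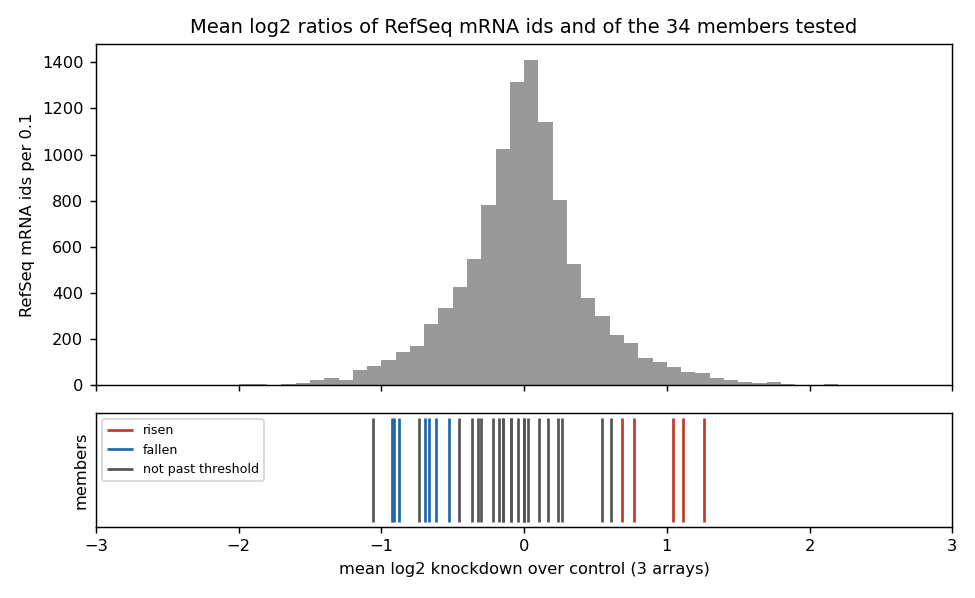
Above, the number of RefSeq mRNA ids in each step of 0.1 of the mean log2 ratio; below, 1 line for each of the 34 tested members, coloured by call. The members spread over both flanks of the distribution, from -1.06 for SNRPF to 1.26 for SF3B1.

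Among the Sm proteins, which form the ring shared by the spliceosomal snRNPs, SNRPG rose, SNRPB fell, and the other 4 tested mRNAs had means below 0 that did not pass the test. SNRPG (NM_003096) had normalized intensities of 1899, 1206 and 5668 in control and 3205, 2969 and 11910 in knockdown on replicates 1, 2 and 3. Knockdown was the higher channel on every array, with log2 ratios of 0.75, 1.30 and 1.07. The mean was 1.04 ± 0.27 (SD, n = 3), 2.06 times control, with a limma adjusted p of 0.0170. SNRPB, read from the id NM_198216, had 510.1, 653.4 and 2515 in control and 348.6, 302.0 and 1291 in knockdown. After normalization knockdown was the lower channel on every array, with log2 ratios of -0.55, -1.11 and -0.96. These averaged -0.87 ± 0.29 (SD, n = 3), 0.545 times control, at a limma adjusted p of 0.0224. Intensities carry the added offset of 50, and arrays were not scaled to each other, so they are to be compared within an array only. The order of the channels is that after normalization. In the unprocessed signals knockdown (Cy5) was the higher channel on every array for SNRPB, SNRPC, EFTUD2, PRPF31 and MAGOH, all called fallen.

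The Sm mRNAs that missed the threshold varied widely between arrays. SNRPF (NM_003095) had the lowest mean of all members, with log2 ratios of -1.90, -0.92 and -0.35, averaging -1.06 ± 0.78 (SD, n = 3) and a limma adjusted p of 0.0652. All arrays lay below 0 with this probe, replicate 3 the least. A second, dimmer SNRPF probe had -1.65, -0.57 and 0.048, with a mean of -0.72 and a limma adjusted p of 0.178. SNRPE (NM_003094) had -0.74, -1.45 and -0.022, averaging -0.74 ± 0.72 (SD, n = 3), at a limma adjusted p of 0.123. SNRPD3 (NM_004175) had -0.62, -0.67 and -0.069, averaging -0.45 ± 0.33 (SD, n = 3), at 0.0984 by the same test. SNRPD1 (NM_006938) had -0.80, -0.48 and 0.32, averaging -0.32 ± 0.58 (SD, n = 3), at 0.365. The second SNRPD1 probe had 0.13, -0.14 and 0.50, with a mean of 0.16, and was not called. For each of these 4 mRNAs replicate 3 gave the highest ratio. Leaving out that array therefore lowers their means by construction. Without replicate 3 all 4 were called fallen, at -1.41 for SNRPF, -1.10 for SNRPE, -0.64 for SNRPD3 and -0.64 for SNRPD1. Among all tested probes 1419 then fell. Without replicate 1 none of the 4 was called. The limma adjusted p was then 0.0663 for SNRPF, 0.190 for SNRPE, 0.228 for SNRPD3 and 0.834 for SNRPD1. Without replicate 2 none was called either, and limma called 0 probes of the whole array. SNRPF also passed under 8 of 13 alternatives with all arrays. It did not pass with either centring, without the dim filter, with outlier spots kept or with its tested probes averaged. Small Sm mRNAs such as SNRPE and SNRPG have processed pseudogenes, and whether the human probes tell those copies apart in monkey RNA was not tested.

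The U1 snRNP, which recognises the 5' splice site, was represented by its own 3 proteins, of which SNRPA and SNRPC fell. SNRPA (NM_004596), the U1 protein that binds a stem-loop of U1 snRNA, had 367.2, 262.1 and 1053 in control and 152.5, 152.2 and 659.1 in knockdown. Its log2 ratios were -1.27, -0.78 and -0.68, averaging -0.91 ± 0.31 (SD, n = 3), 0.532 times control, with a limma adjusted p of 0.0226. SNRPA has 3 tested probes, and all were called fallen; the further probes had means of -1.06 and -0.83. SNRPC (NM_003093), which helps U1 hold the splice site, had log2 ratios of -0.68, -0.90 and -0.42, averaging -0.67 ± 0.24 (SD, n = 3), 0.630 times control, at a limma adjusted p of 0.0294. SNRNP70 (NM_003089), the protein known as U1-70K, lay on both sides of 0 with -0.42, 0.11 and -0.34, averaging -0.22 ± 0.29 (SD, n = 3). Its 95% interval ran from -0.57 to 0.13, and the mean of SNRPA lay below it. The interval of SNRPA, from -1.28 to -0.54, overlapped that of SNRNP70, and the difference between them was not tested.

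In the U2 snRNP, SF3B1 rose and SNRPB2 fell, while the other 6 tested mRNAs had means between -0.090 and 0.24 and did not pass the test. SF3B1 (NM_012433), the large SF3B subunit that holds the branch site helix, had 226.3, 180.2 and 558.4 in control and 602.1, 567.7 and 915.4 in knockdown. Its log2 ratios of 1.41, 1.66 and 0.71 exceeded those of 97.6%, 99.5% and 93.9% of tested probes on replicates 1, 2 and 3. The mean was 1.26 ± 0.49 (SD, n = 3), 2.40 times control, the highest of all members, with a limma adjusted p of 0.0217. SNRPB2 (NM_003092), the U2 snRNA-binding protein called U2-B'', had 687.1, 556.1 and 2843 in control and 305.2, 282.0 and 1840 in knockdown. Its log2 ratios were -1.17, -0.98 and -0.63, averaging -0.93 ± 0.28 (SD, n = 3), 0.526 times control, at a limma adjusted p of 0.0196. A second SNRPB2 probe was also called fallen, with a mean of -0.58.

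None of the measured partners of SF3B1 and SNRPB2 passed the test. SNRPA1 (NM_003090), which binds U2 snRNA together with SNRPB2, had log2 ratios of 0.21, -0.47 and -0.015, and the 95% interval of its mean ran from -0.48 to 0.30. SF3B2 (NM_006842) and SF3B3 (NM_012426), the other measured subunits of SF3B, had means of 0.0021 and 0.028, with intervals from -0.28 to 0.29 and from -0.28 to 0.34. For SF3A, the complex that joins SF3B on U2, the means were 0.24 for SF3A1 (NM_005877), 0.11 for SF3A2 (NM_007165) and -0.041 for SF3A3 (NM_006802). The mean of SF3B1 lay above the upper bound of every one of these intervals, the highest being 0.49 for SF3A1; the differences themselves were not tested. SF3B4 (NM_005850) was not well above background in any channel of any array and was not tested. U2AF2 (NM_007279), the large subunit of the factor that binds the polypyrimidine tract, had a mean of -0.15 and did not pass the test (limma adjusted p of 0.401).

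In the U4/U6.U5 tri-snRNP, PRPF8 rose and EFTUD2 and PRPF31 fell. PRPF8 (NM_006445), the large U5 protein at the heart of the catalytic site, had 183.7, 199.8 and 472.8 in control and 372.9, 320.8 and 720.8 in knockdown. All arrays gave a higher knockdown channel, with log2 ratios of 1.02, 0.68 and 0.61, averaging 0.77 ± 0.22 (SD, n = 3), 1.71 times control, at a limma adjusted p of 0.0220. Its second probe was called as well, at 1.14, 0.88 and 0.53 with a mean of 0.85. EFTUD2 (NM_004247), the GTPase that contacts PRPF8 within U5, had 1316, 1108 and 4996 in control and 834.8, 784.6 and 2630 in knockdown. Here all arrays gave a lower knockdown channel after normalization, though not in the unprocessed signals, with log2 ratios of -0.66, -0.50 and -0.93. These averaged -0.69 ± 0.22 (SD, n = 3), 0.618 times control, at a limma adjusted p of 0.0254. On every array PRPF8 lay above 0 and EFTUD2 below it.

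PRPF31 (NM_015629), which bridges U4 snRNA and the U5 proteins, had log2 ratios of -0.65, -0.90 and -0.29, averaging -0.61 ± 0.31 (SD, n = 3), at a limma adjusted p of 0.0436. Its second, dimmer probe had a mean of -0.18 and was not called. The PRPF31 call was lost when its tested probes were averaged, at -0.40 with a limma adjusted p of 0.0967, with Agilent's processed log ratio (0.0552), without the filter on dim probes (0.0833) and with both centrings, and was kept in 9 of 16 alternatives. PRPF4 (NM_004697), a U4/U6 protein that works with PRPF3 (NM_004698), had -0.36, -0.32 and -0.23, averaging -0.30 ± 0.067 (SD, n = 3), which missed the threshold at a limma adjusted p of 0.0862. PRPF3 itself had a mean of 0.16 and SART1 (NM_005146), needed to join the tri-snRNP to the spliceosome, one of -0.15. PRPF6 (NM_012469), a scaffold between U5 and U4/U6, differed most between arrays among the tri-snRNP mRNAs, with -0.72, 0.45 and -0.25. PRPF19 (NM_014502), the ubiquitin ligase of the complex that activates the spliceosome, lay below 0 on every array with -0.25, -0.10 and -0.74, and its mean of -0.37 ± 0.34 (SD, n = 3) did not pass the test (limma adjusted p of 0.159).

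**Figure D3:**
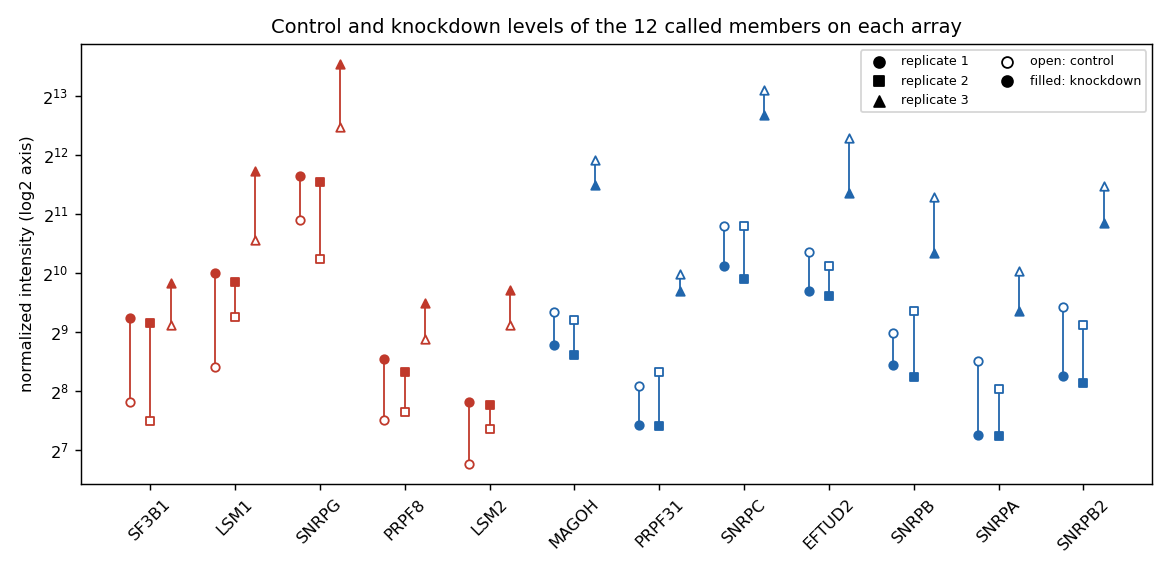
Normalized intensity on a log2 axis for the 12 called members, with control (open) joined to knockdown (filled) on each of the 3 arrays. The channels keep their order on every array for each of these members, and replicate 3 is the brightest in each channel.

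For the LSM ring, 2 of 6 tested mRNAs rose and none fell, and the means of the other 4 were 0.61, 0.55, 0.26 and, for LSM7, 0.0001. LSM7, whose mean has no direction, had -0.21 with centring on the tested probes. The other 5 tested LSM mRNAs were above 0 and called under both centrings. Of these, LSM3, LSM4 and LSM5 were not called with loess, and both centrings raised their ratios. The shares of all tested probes called under the centrings are not given here, so these calls have no background beside them. LSM1 (NM_014462), the subunit particular to the cytoplasmic decay ring, had 341.2, 608.8 and 1519 in control and 1022, 927.6 and 3382 in knockdown. Knockdown was higher on every array, least on replicate 2, with log2 ratios of 1.58, 0.61 and 1.15. The mean was 1.11 ± 0.49 (SD, n = 3), 2.17 times control, with a limma adjusted p of 0.0264. LSM2 (NM_021177), a subunit of both rings, had 109.5, 164.1 and 554.2 in control and 226.3, 218.0 and 837.8 in knockdown. Its log2 ratios were 1.05, 0.41 and 0.60, averaging 0.68 ± 0.33 (SD, n = 3), 1.61 times control, at a limma adjusted p of 0.0370.

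The other LSM subunits belong to both rings, and for LSM3, LSM4 and LSM5 replicate 2 gave the lowest ratio. LSM5 (NM_012322) had 0.58, 0.23 and 0.83, averaging 0.55 ± 0.30 (SD, n = 3), just short of the threshold at a limma adjusted p of 0.0549. LSM3 (NM_014463) had 1.02, -0.095 and 0.90, averaging 0.61 ± 0.61 (SD, n = 3), at 0.139 by the same test. LSM4 (NM_012321) had 0.53, -0.12 and 0.38, averaging 0.26 ± 0.34 (SD, n = 3), at 0.283. The 3 probes of LSM3 gave means of 0.61, 0.60 and 0.59, each with replicate 2 below 0 and the other arrays at 0.82 or above, and the second LSM4 probe gave 0.35. The low value of replicate 2 was seen with each tested probe of LSM3 and of LSM4. LSM7 (NM_016199) had -0.29, -0.045 and 0.34, with a 95% interval from -0.37 to 0.37. LSM6 (NM_007080) was not well above background in any channel and was not tested. By particle, the median log2 ratio was 0.58 for the LSM mRNAs, -0.60 for the Sm mRNAs, -0.67 for the U1 proteins, 0.015 for the U2 proteins and -0.17 for the tri-snRNP. With centring on the tested probes these medians were 0.88, -0.29, -0.19, 0.21 and -0.16 in the same order. With centring on all probes they were 1.19, 0.025, 0.12, 0.52 and 0.16, so the sign of the Sm, U1 and tri-snRNP medians depended on the normalization. By array, the LSM median was 0.80, 0.094 and 0.71 and the Sm median -0.68, -0.79 and -0.046 on replicates 1, 2 and 3. The difference between these groups was not tested.

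The exon junction pair differed in its calls. MAGOH (NM_002370) had 646.7, 589.8 and 3877 in control and 440.8, 393.3 and 2874 in knockdown. Its log2 ratios of -0.55, -0.58 and -0.43 lay close together, with a mean of -0.52 ± 0.081 (SD, n = 3), 0.696 times control, at a limma adjusted p of 0.0282. The MAGOH call was lost with the deposited series table (limma adjusted p of 0.0559), Agilent's processed log ratio (0.130), a normexp offset of 0 (0.0739), the intensity trend (0.0799) and both centrings, and was kept in 8 of 16 alternatives. Among the other called members, Agilent's processed log ratio ended the calls of SNRPC (limma adjusted p of 0.0934) and EFTUD2 (0.0904). Testing without the dim filter ended those of SNRPC (limma adjusted p of 0.0513), SF3B1 (0.0504), LSM1 (0.0616) and LSM2 (0.0760). MAGOH has a near-identical paralog, MAGOHB, and whether the probe tells them apart was not tested. RBM8A (NM_005105), its partner, had -0.23, -0.27 and 0.24, averaging -0.090 ± 0.28 (SD, n = 3), and further probes with means of -0.29 and -0.14; none was called.

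Different probes of the same mRNA give a reading that the choice of the brightest probe did not use. For 13 members at least 1 further probe was tested, 16 probes in all. Of these, 14 had a mean of the same sign as the brightest probe, and the exceptions were those of SNRPD1 and SF3A3. The called members SNRPA, SNRPB2, PRPF8 and PRPF31 have 5 further tested probes, of which 5 had the same sign and 4 were called the same way. SF3B1, LSM1, LSM2, SNRPG, SNRPB, EFTUD2 and MAGOH have 1 probe each, and the further probe of SNRPC was too dim to be tested, so their calls rest on a single probe.

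**Figure D4:**
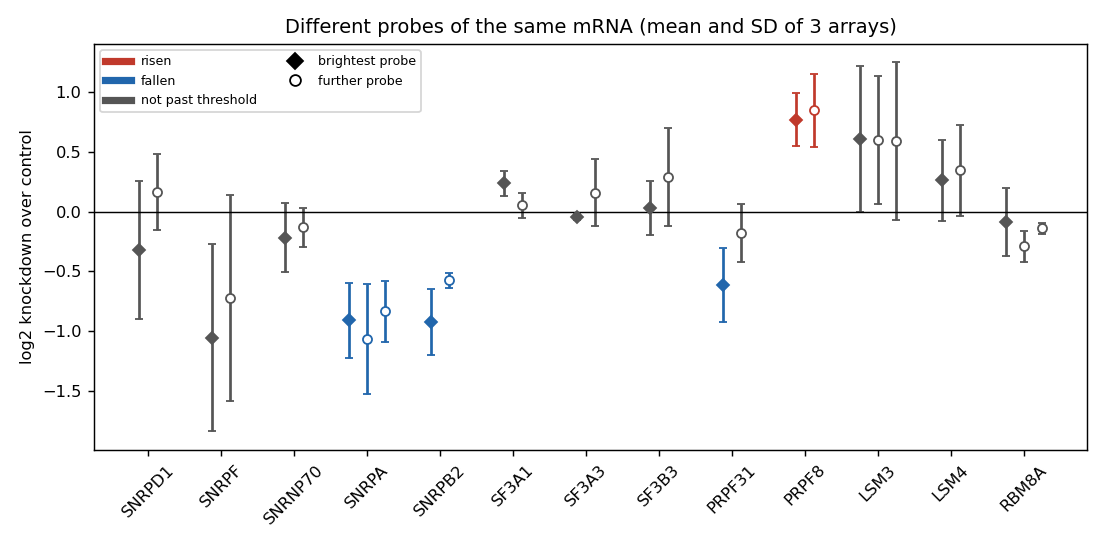
Mean log2 ratio with SD over 3 arrays for every tested probe of the 13 members that have more than 1; diamonds are the brightest probe, circles the further ones, and colour gives the call. The 3 probes of SNRPA and the 2 of PRPF8 and of SNRPB2 are called alike, and the 3 of LSM3 have nearly equal means with wide spread.

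Centring in place of loess cost fallen calls and no risen ones. Both centrings gave each called member a higher ratio than loess did. Such a shift enlarges rises and shrinks falls, so these settings cannot show which calls are firmer. With centring on the tested probes, the 5 risen members stayed called and LSM3, LSM4 and LSM5 joined them, making 8, while 4 were called fallen: SNRPB, SNRPA, SNRPB2 and PRPF19. With centring on all probes 9 rose and 0 fell (limma), the ninth being RBM8A, and SNRPC, EFTUD2 and MAGOH turned to means of 0.12, 0.044 and 0.17. That setting placed the median of all tested probes at 0.30, above these 3 means. These 3 mRNAs are brighter than most tested probes, and centring does not follow brightness. With centring on the tested probes they had -0.19, -0.27 and -0.14, at limma adjusted p of 0.329, 0.281 and 0.445. SNRPB, SNRPA and SNRPB2 kept means below 0 with centring on all probes, at -0.22, -0.36 and -0.26. The rises of SF3B1, LSM1, SNRPG, PRPF8 and LSM2 were larger under both centrings than with loess, at most 1.85 for SF3B1. The shares of all tested probes called under both centrings are not given here, so the counts of called members have no background beside them.

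**Figure D5:**
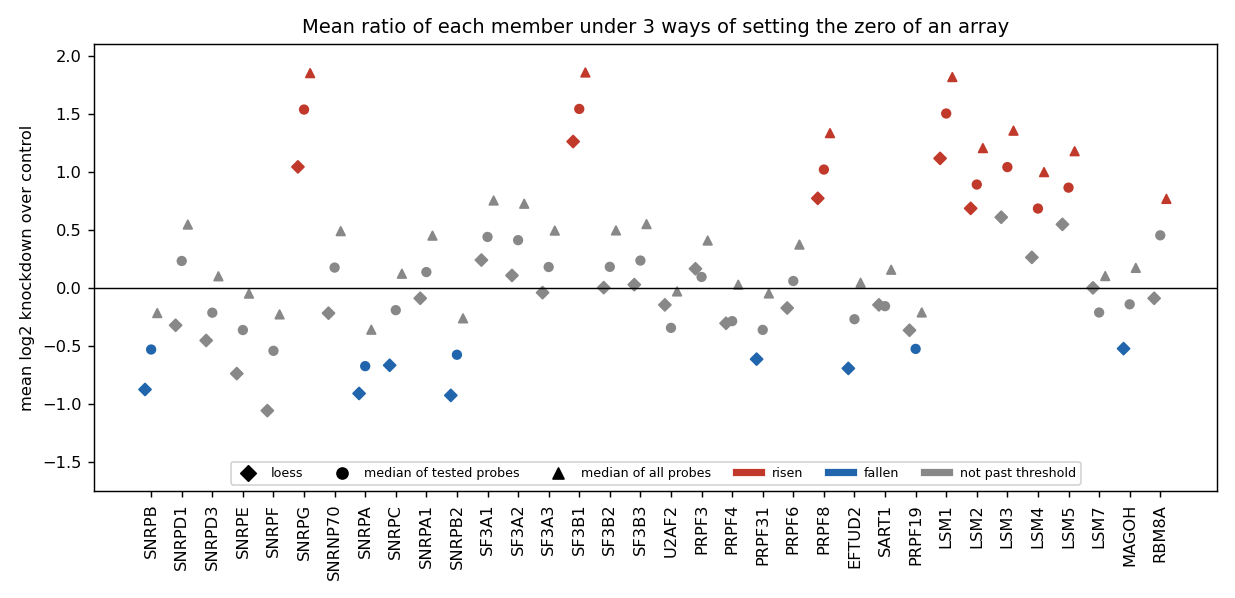
Mean log2 ratio of each of the 34 tested members with loess (diamonds), with each array centred on its tested probes (circles) and with each array centred on all probes (triangles), coloured by the call under that setting. The 5 risen members are red under all 3, and none of the blue diamonds is blue under centring on all probes.

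The number of arrays sets the precision: with 3 ratios the smallest p that an exact test by sign flips can give for 1 mRNA is 0.25, so the calls lean on the spread pooled over all probes by limma. Without replicate 1, 4 members rose and 4 fell, with SNRPC, PRPF31, LSM2 and MAGOH no longer called. Among all tested probes, 18146 in the main fit, 1275 then rose and 1121 fell. Without replicate 3, 4 members rose and 11 fell, and of the 12 calls LSM2 alone was lost. Among all tested probes 1502 then rose and 1419 fell. Without replicate 2 limma called 0 members and 0 probes of the whole array, while 8 members lay above 0 and 7 beneath it with an unadjusted p of less than 0.05. The share of all probes at that unadjusted level is not given here.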

How the data were processed

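RNA of 3 biological replicates was measured on 2-colour Agilent arrays of design 014850. The authors' intensity values came, per the file headers, from Agilent Feature Extraction 10.9.1.1; the submitters' processing notes give version 10.9 and limma with no version. The deposited tables hold median spot and background intensity, processed signals and, per the file headers, their log10 ratio. The deposited series table holds log2 ratios of unstated scale, centring and direction. They followed loess-normalized Cy5 over Cy3 signals with Pearson's r of 0.994 to 0.995 and positive slope, had medians of 0 to 0.01, and were an alternative.

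In R 4.3.3 with limma 3.58.1, median signals were corrected by normexp (offset 50) and normalized by loess within arrays with control spots at weight 0. Spots with outlier flags, 142 to 150 of 43376, were left out, and spots of a probe averaged. A probe was tested when the scanner's flag for a signal well above background was set on all 3 arrays for 1 of the channels or both, 18146 of 41000. Ratios were tested against 0 with lmFit and eBayes, 2-sided, with Benjamini-Hochberg adjustment over all tested probes. The offset pulls dim ratios toward 0. The script was tested on simulated data.

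The members and lists were chosen with earlier results of these data known. All members may be named, and full values go to those past the threshold and others with large ratios. Groups were set by particle. Symbols were assigned by hand to the ids. No table paired the other ids with symbols, so further splicing genes and cell type markers of the plan were not computed, and neither were protein lengths. The alternatives changed background, normalization, scaling, source, filter, flags, variance model, weights, replicates and probes per id.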

Additional observations from a re-analysis of the deposited data

How the results depend on the processing

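Of 192 values of the 12 called members under 16 alternatives, 151 kept direction and call, 38 kept the direction and lost the call, and 3 turned. The counts of risen and fallen members were within 1.5 times the main ones except as follows. Median centring gave 9 risen and 0 fallen members and a median log2 ratio of 0.43. Centring on the tested probes gave 8, 4 and 0.12. No filter on dim probes, with all 41000 probes tested, gave 2 risen. Shares of all probes called under these settings are not given here. With 1 array left out there were 0 to 4 risen members, 0 to 11 fallen ones and medians from -0.16 to -0.054. Among all tested probes 0 to 1502 then rose and 0 to 1419 fell. A fit of 2 arrays has less residual freedom. The causes of these differences, this one included, were not tested.

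Means that print as 0.00, those of SF3B2 and LSM7, have no direction. Median centring turned SNRPC to 0.12, EFTUD2 to 0.044 and MAGOH to 0.17, and, among members not called, SNRPD1 to 0.55, SNRPD3 to 0.10, SNRNP70 to 0.49, SNRPA1 to 0.45, SF3A3 to 0.49, PRPF4 to 0.027, PRPF6 to 0.37, SART1 to 0.16 and RBM8A to 0.77. Centring on the tested probes turned SNRPD1 to 0.23, SNRNP70 to 0.17, SNRPA1 to 0.14, SF3A3 to 0.18, PRPF6 to 0.059 and RBM8A to 0.45. SF3B3 turned to -0.011 without background correction and to -0.017 with Agilent's processed log ratio. PRPF6 turned to 0.030 with array weights, and SF3A3 to 0.060 as the mean of its probes. Leaving out replicates gave SNRPA1 -0.24 to 0.10, SF3B3 -0.083 to 0.14 and PRPF6 -0.49 to 0.10.

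The main test is itself paired, since each ratio is knockdown over control within 1 array, so no separate fit with a replicate block was run.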
